A study of Mus musculus with 12 samples.

Results

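The nuclear genes that encode subunits of the mitochondrial respiratory chain were followed in mouse pancreatic islets after a treatment read here as ablation of beta cells. Members were chosen by gene name: names beginning with Ndufa, Ndufb, Ndufc, Ndufs, Ndufv, Sdh followed by a to d, Uqcr, Cox4 to Cox8 or Atp5 were taken, those containing "-ps" or "-as" were left out, and 10 or more counts were required in 3 or more libraries. These prefixes took 103 names, of which 7 were left out and 3 fell below the count minimum (Cox8c with 0 counts over all 12 libraries, Cox7b2 with 4 and Cox8b with 10). The 93 remaining members are 93 of the 48709 genes in the table, and all 93 were among the 17294 genes tested. Cox7a1 lay just inside the minimum, with 97 counts in all and 10 or more in 3 libraries. By known function, 78 of the members encode subunits: 36 of complex I, 4 of complex II, 8 of complex III, 15 of complex IV and 15 of complex V. The prefixes also took 11 assembly factors (Ndufaf1 to Ndufaf7 and Sdhaf1 to Sdhaf4) and 4 genes that are not standard subunits (Atp5s, Atp5sl, Cox7a2l and Ndufa4l2), so not every member is a subunit.

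RNA was sequenced from islets of female mice whose genotype is labelled NSG RIP-DTR Htz in all 12 samples, with 3 libraries in each of 4 groups: CTRL, which received no treatment, and DT 1 DPA, DT 3 DPA and DT 5 DPA, which received DT, read here as diphtheria toxin, with DPA read as days post-ablation. In RIP-DTR mice the rat insulin promoter drives the receptor for diphtheria toxin, so the toxin acts on cells that use that promoter, and the untreated controls carry the transgene too. The samples analysed here include no vehicle group and no toxin group without the transgene. NSG mice lack mature T, B and natural killer cells but keep macrophages. The labels do not tie libraries to separate animals; p-values therefore measure the spread among these libraries alone, and that spread may be technical.

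The respiratory chain passes electrons from NADH (complex I) and succinate (complex II) through coenzyme Q, complex III and cytochrome c to oxygen at complex IV, and complex V uses the resulting proton gradient to make ATP. All but complex II combine nuclear-encoded subunits with subunits encoded by mitochondrial DNA. In beta cells, ATP made this way closes potassium channels in response to glucose and so links glucose metabolism to insulin secretion.

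Libraries held 29867083 to 50012558 counts. Ins1 and Ins2 together took 10.4 to 19.7% of them. Markers of beta, alpha, delta and PP cells were present in every library, as an islet sample should show, and the summed level of 10 beta cell markers was 106800 to 163600 CPM (counts per 1000000, scaled by TMM) at 1 DPA, against 183800 to 204500 CPM in CTRL. Acinar markers varied within groups, with sums of 5266 to 49980 CPM at 1 DPA and 10340 to 65530 CPM in CTRL. In whole islets, fewer cells of a type and less RNA per cell cannot be told apart, here and in every value below.

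Per length, the members were expressed at graded levels in CTRL islets by the authors' TPM, which corrects for transcript length and library size. The median mean TPM in CTRL was 43.0 over the 36 complex I subunits, 76.1 over the 4 of complex II, 74.7 over the 8 of complex III, 68.4 over the 15 of complex IV and 85.1 over the 15 of complex V, against 12 over the 11 assembly factors. The highest were Cox8a, a small complex IV subunit, at 489 ± 21.6 TPM, Cox6a1, another complex IV subunit, at 357 ± 9.07 TPM, and Atp5a1, the alpha subunit of complex V, at 338 ± 7.19 TPM (mean ± SD, n = 3 each). The isoforms known from muscle or testis lay at the low end: Cox7a1 was at 0.705 ± 0.504 TPM, Cox6b2 at 1.18 ± 0.473 TPM and Cox6a2 at 2.48 ± 0.649 TPM in CTRL. Skeletal and cardiac muscle markers were also near 0: 10 of them summed to 2.53 to 3.33 CPM at 1 DPA and 1.69 to 2.57 CPM in CTRL, and Myh4, a muscle myosin, was at 0 in 10 libraries.

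At 1 DPA, equal numbers of members were called in each direction with TMM scaling. Against CTRL, 20 of 93 members were higher and 20 were lower at an adjusted p under 0.05 (edgeR's quasi-likelihood test, Benjamini-Hochberg over all 17294 genes). Among all genes tested, 29.2% were called higher and 22.4% lower, so members called higher made up a smaller share than genes at large and members called lower about the same share. Of the 78 subunits, 17 were higher and 17 were lower, with a median log2 fold change of -0.03, beside -0.05 over all genes tested. Over the 4 groups together, 44 of 93 members differed, while 57.4% of all genes did. Of these 40 calls, 30 held under every setting tried, 9 ended when at least 1 library was left out, and 0 turned round.

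The balance between the directions depends on the scaling. With library sizes computed without the 50 most abundant genes and no TMM factor, a setting chosen after seeing the data, the median of all genes moved to -0.18 at 1 DPA. There, 15 members were higher and 36 lower, and the share of all called genes that were higher was 43.3%, beside 56.6% with TMM. All 20 members lower with TMM stayed lower, and the 5 that lost the higher call are named with their complexes. The authors' TPM shifted the other way: most members had a higher mean at 1 DPA than in CTRL. Among these were Ndufb10, not called (70.4 to 90.1), and Atp5g2, called lower (137 to 147). Others fell, such as Ndufa4 (68.4 to 42.5) and Atp5g1 (22.4 to 18.9). The equal numbers therefore belong to the scaling used, and TPM was not tested.

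Exons of 25 members overlap those of an expressed gene on the opposite strand. The library kit was stranded, but whether counting used strand is not given in the sources used here, so reads of such pairs may not have been told apart. Among members called at 1 DPA these include Ndufs1, Ndufa3, Uqcrc2, Cox5a, Cox6c, Atp5j, Atp5a1 and Atp5d. Among their partners, Cbarp (with Atp5d), Gabpa (with Atp5j) and Ino80dos (with Ndufs1) were called higher, at 1.66, 0.24 and 1.88 on the log2 scale. Eef1b2 (with Ndufs1), Vps13b (with Cox6c) and Haus1 (with Atp5a1) were called lower, at -0.29, -0.22 and -0.62.

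**Figure D1:**
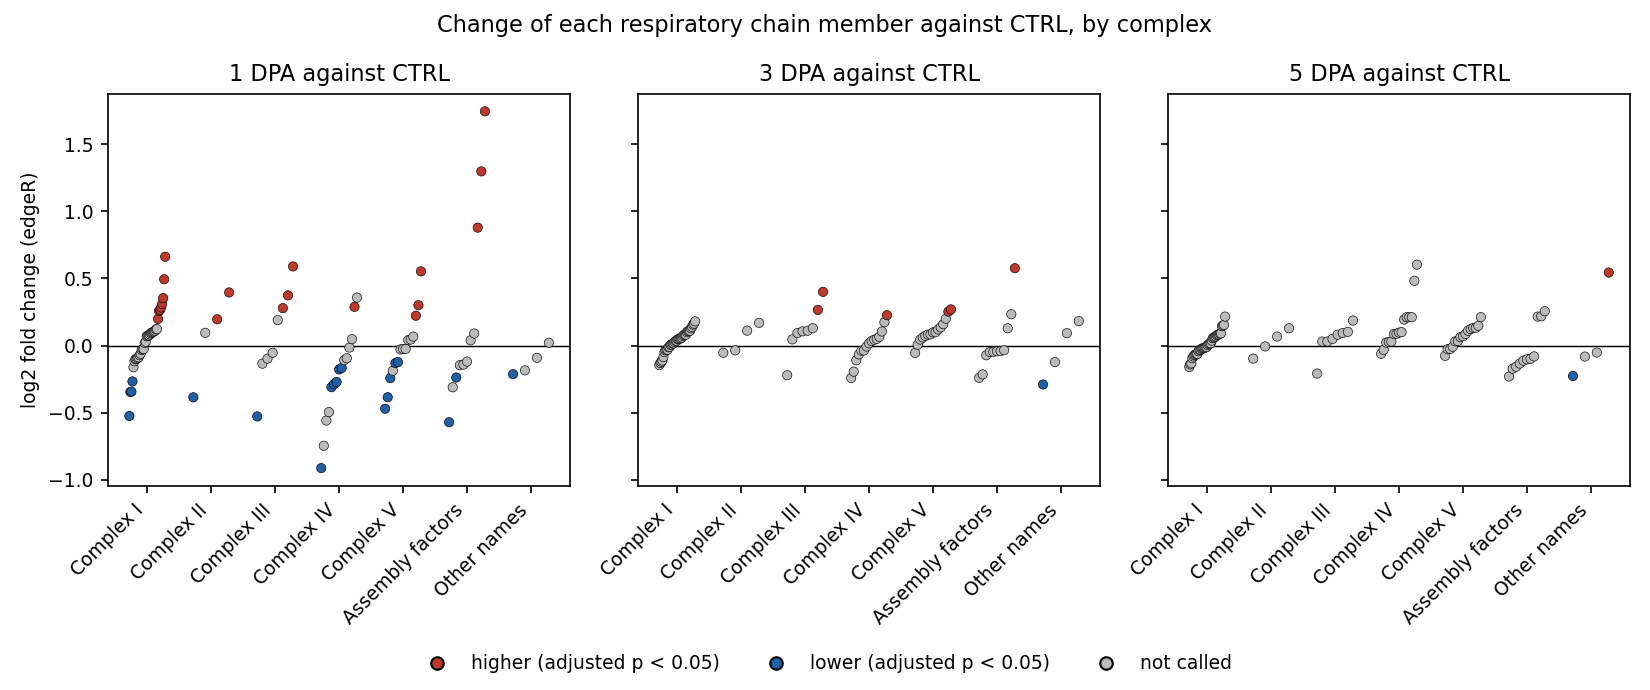
Log2 fold change (edgeR) of each of the 93 members against CTRL at 1, 3 and 5 DPA, by complex. Each point is a gene, red where called higher, blue where called lower and grey where not called. At 1 DPA 20 members are higher and 20 lower, at 3 DPA 6 are higher and 1 lower, and at 5 DPA 1 is higher and 1 lower.

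Assembly factors, which help to build the complexes without remaining in them, held the largest rises of all members. Ndufaf4 (mm10, chr4:24898083-24905001, plus strand), a complex I assembly factor, had 68.8, 67.1 and 98.02 CPM at 1 DPA, against 21.5, 24.7 and 23.6 CPM in CTRL. Every 1 DPA library lay above every CTRL library, and replicate 3 at 1 DPA was the highest. Its log2 fold change was 1.74 ± 0.14 (SE, edgeR adjusted p = 1.35e-06). Ndufaf5 (chr2:140170649-140203689, plus strand), an enzyme known in human cells to hydroxylate an arginine of the complex I subunit NDUFS7, had 16.2, 13.1 and 14.8 CPM at 1 DPA, against 6.13, 5.86 and 5.97 CPM in CTRL. The groups did not overlap, and the log2 fold change was 1.30 ± 0.12 (edgeR adjusted p = 4.75e-06). Ndufaf6, another complex I assembly factor, had 8.73, 8.50 and 8.94 CPM at 1 DPA, against 4.63, 4.35 and 5.26 CPM in CTRL, again without overlap (log2 fold change 0.88 ± 0.13, edgeR adjusted p = 0.00015). The other 4 complex I factors (Ndufaf1, Ndufaf2, Ndufaf3 and Ndufaf7) were not called, with log2 fold changes between -0.31 and 0.09.

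Of the 4 complex II assembly factors, 2 were lower, beside 22.4% of all genes tested. Sdhaf4, which binds the flavin-carrying subunit Sdha during assembly, had 5.89, 6.07 and 5.61 CPM at 1 DPA, against 8.71, 8.62 and 8.78 CPM in CTRL, with no overlap (log2 fold change -0.57 ± 0.10, edgeR adjusted p = 0.00064). Sdhaf1, which aids iron-sulfur cluster insertion into Sdhb, was lower, at -0.24 ± 0.08 on the log2 scale (edgeR adjusted p = 0.0343), which was no longer called without CTRL replicate 3 (edgeR adjusted p = 0.1), with the replicate block (0.0573) or in a fit of these 2 groups alone (0.0631). Sdhaf2 and Sdhaf3 were not called, at -0.12 and -0.15.

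The promoters of Ndufaf4 and Ndufaf5, the 2 members with the largest rises, and of Ndufa4, the member with the largest fall, are shown because they can be set beside the motif of NRF1 (nuclear respiratory factor 1), a transcription factor known to bind many respiratory chain genes. Each runs from 250 bases before to 50 bases after the RefSeq start, on the gene's strand, in build GRCm38.p6; capitals mark NRF1 letters GCGCATGCG, searched on both strands. In Ndufaf4 (chr4:24897833-24898132, plus strand) and Ndufaf5 (chr2:140170396-140170695, plus strand) the 2 strands' matches overlap and form a single site. Ndufa4 (chr6:11907401-11907700, minus strand) holds none of these letters in this window.
Ndufaf4: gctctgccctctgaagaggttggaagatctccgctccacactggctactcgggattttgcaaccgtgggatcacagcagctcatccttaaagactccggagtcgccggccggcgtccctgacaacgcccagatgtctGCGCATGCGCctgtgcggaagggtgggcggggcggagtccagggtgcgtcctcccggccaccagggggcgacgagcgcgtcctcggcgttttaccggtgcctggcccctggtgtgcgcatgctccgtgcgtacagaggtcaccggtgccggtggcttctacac
Ndufaf5: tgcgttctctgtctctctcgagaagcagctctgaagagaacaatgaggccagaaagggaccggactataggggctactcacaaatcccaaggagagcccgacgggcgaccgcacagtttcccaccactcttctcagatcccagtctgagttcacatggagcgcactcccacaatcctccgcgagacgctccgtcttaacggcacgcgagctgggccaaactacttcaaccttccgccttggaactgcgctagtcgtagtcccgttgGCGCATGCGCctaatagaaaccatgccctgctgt
Ndufa4: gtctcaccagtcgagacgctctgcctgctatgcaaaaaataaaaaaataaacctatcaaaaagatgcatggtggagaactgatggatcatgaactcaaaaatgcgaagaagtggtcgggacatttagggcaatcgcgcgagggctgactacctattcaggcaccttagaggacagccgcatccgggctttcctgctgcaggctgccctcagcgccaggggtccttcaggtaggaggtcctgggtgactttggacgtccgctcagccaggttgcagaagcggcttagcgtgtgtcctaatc

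RefSeq promoters were matched for 75 of the 93 members (80 promoters), and the NRF1 letters were present in 12.5% of them, against 1.75% of all 32851 promoters of that length. The genes were Atp5g2, Atp5k, Atp5l, Cox6a1, Ndufa11, Ndufa8, Ndufaf4, Ndufaf5, Uqcr11 and Uqcrc1. The letters were in 3 of the 15 matched genes higher at 1 DPA and in 3 of the 18 matched genes that were lower. YY1 letters (AAGATGGCG) were in 8.75% of member promoters and 1.4% of all, ETS letters (CCGGAAGT) in 6.25% and 3.89%, CRE letters (TGACGTCA) in 5.0% and 1.79%, and ERR letters (TCAAGGTCA) in 2.5% and 0.423%. A match is a description of the sequence and not a bound site.

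In complex I, 8 of 36 subunits were higher at 1 DPA and 4 were lower, with a median log2 fold change of 0.07. Both counts were smaller shares than the 29.2% higher and 22.4% lower among all genes tested. The same shares of all genes stand beside every count by complex or part at 1 DPA below. Core subunits, those shared with the bacterial enzyme that carry the flavin and iron-sulfur clusters, were called in 5 of 7 cases, 4 of them higher and 1 lower. Ndufv1, which binds NADH, was higher, at 0.26 on the log2 scale, and so were Ndufs1 at 0.28 and Ndufv2 at 0.31. Ndufs8, an iron-sulfur subunit, went the other way, with 25.4, 23.04 and 22.5 CPM at 1 DPA, against 30.6, 29.4 and 29.97 CPM in CTRL (log2 fold change -0.34 ± 0.06, edgeR adjusted p = 0.000829).

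The 29 accessory subunits of complex I, which surround the core, had a median log2 fold change of 0.03; 4 were higher and 3 lower. Ndufc2 (chr7:97400003-97407802, plus strand), in the membrane arm, had 48.6, 44.7 and 44.2 CPM at 1 DPA, against 27.1, 32.4 and 27.5 CPM in CTRL, with the groups apart (log2 fold change 0.66 ± 0.08, edgeR adjusted p = 3.45e-05). Ndufab1, the mitochondrial acyl carrier protein, was higher at 53.7 ± 0.169 CPM at 1 DPA and 42 ± 1.81 CPM in CTRL (mean ± SD, n = 3 each; log2 fold change 0.35). Ndufa6 and Ndufa5 were higher by less, at 0.27 and 0.20. The Ndufa5 call ended without any CTRL library, 1 DPA replicate 3 or 3 DPA replicate 1 (edgeR adjusted p up to 0.16), and the Ndufa6 call without CTRL replicate 1, 1 DPA replicates 1 or 3, or 3 DPA replicate 1 (up to 0.112). Both also ended with the scaling without TMM, and the Ndufa5 call without the filter and in a fit of these 2 groups alone.

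Of the accessory subunits that fell, Ndufa1, a small membrane protein encoded on the X chromosome, had 20.5, 18.4 and 17.2 CPM at 1 DPA, against 25.9, 29.3 and 25.5 CPM in CTRL (log2 fold change -0.52 ± 0.12, edgeR adjusted p = 0.00275). Ndufc1 and Ndufa3 were lower, at -0.35 ± 0.08 and -0.27 ± 0.09. The other 22 accessory subunits were not called, with log2 fold changes from -0.16 for Ndufb3 to 0.12 for Ndufb10.

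**Figure D2:**
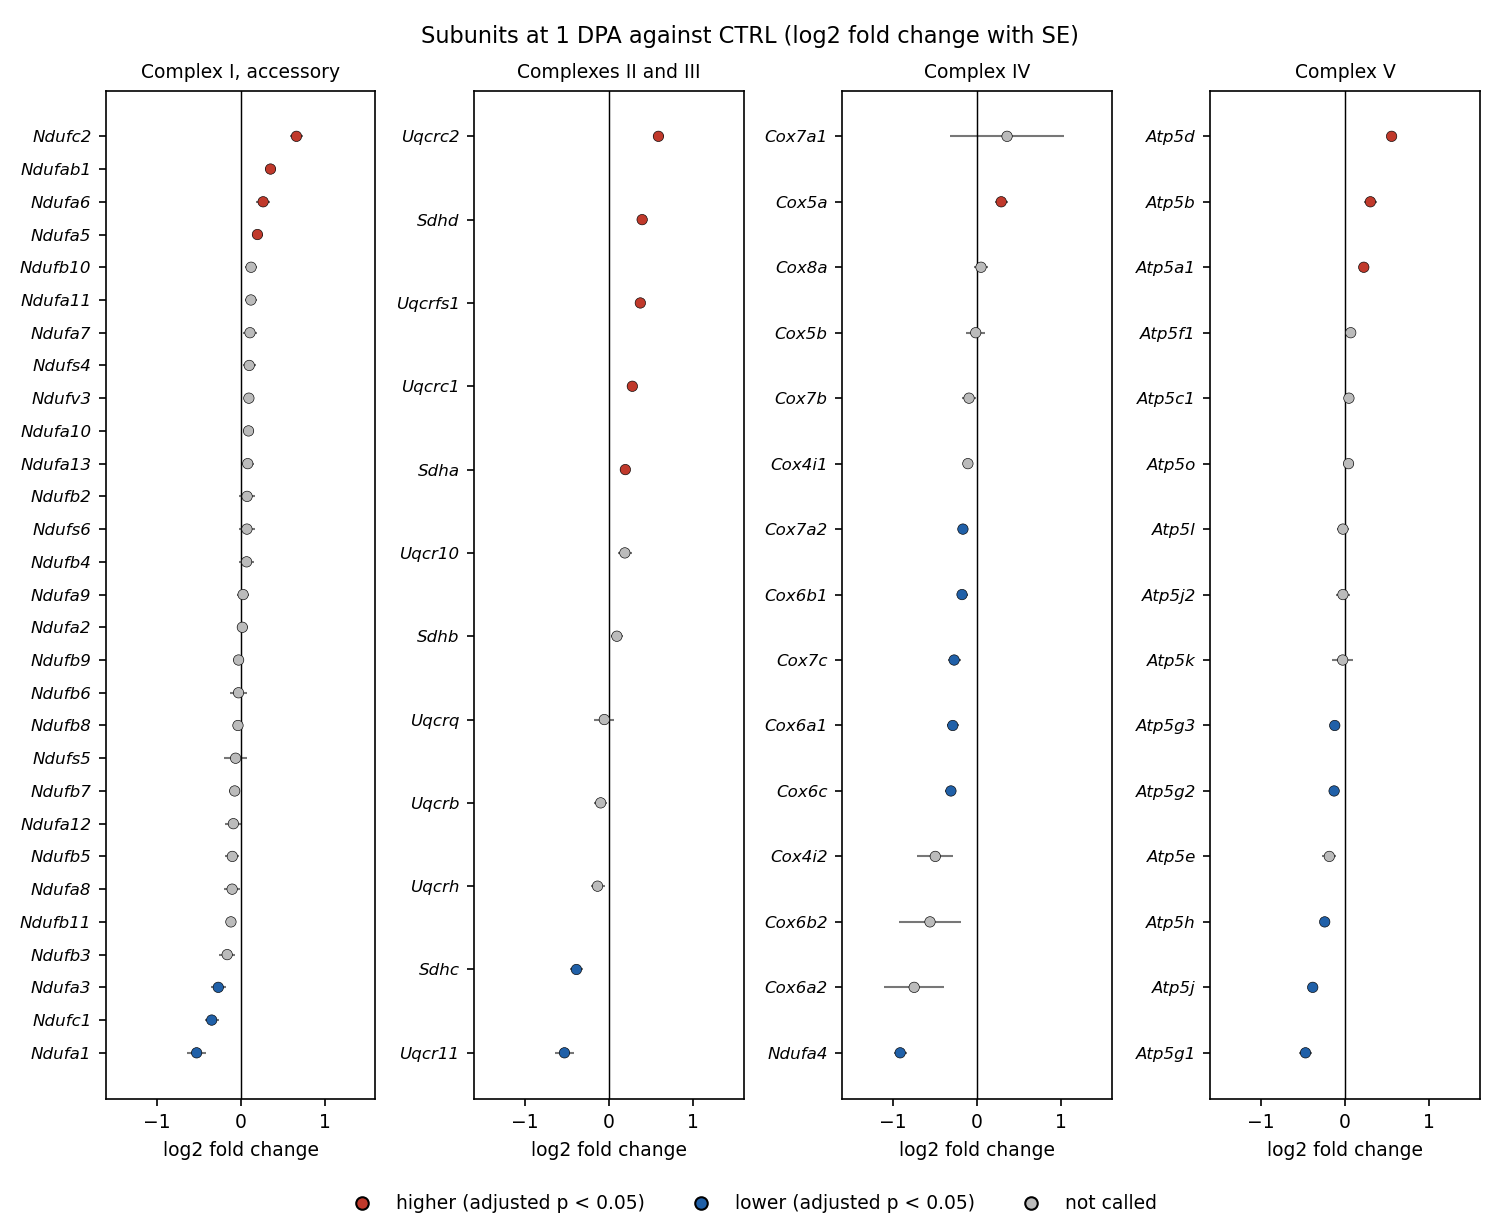
Log2 fold change at 1 DPA against CTRL of the 29 accessory subunits of complex I and of the subunits of complexes II to V, sorted within each panel, with bars of 1 SE (edgeR). Red points are called higher and blue points lower; the 3 called F1 subunits of complex V are on the higher side (Atp5d, Atp5b and Atp5a1), and Ndufa4 is the lowest point, at -0.91.

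Complex II, the succinate dehydrogenase, has 4 subunits, and its membrane anchors moved apart. Sdhd (chr9:50596357-50603812, minus strand) had 91.5, 83.1 and 92.2 CPM at 1 DPA, against 69.6, 65.8 and 67.3 CPM in CTRL, all 1 DPA libraries being above (log2 fold change 0.40 ± 0.05, edgeR adjusted p = 8.11e-05). Sdhc (chr1:171127165-171150603, minus strand), the other anchor, had 56.5, 49.4 and 47.1 CPM at 1 DPA, against 69.8, 68.9 and 61.2 CPM in CTRL, all 1 DPA libraries being below (log2 fold change -0.39 ± 0.07, edgeR adjusted p = 0.0011). Sdha, the catalytic flavoprotein, was higher, at 0.20 ± 0.06 (edgeR adjusted p = 0.014). It was no longer called without 1 DPA replicates 1 or 3 or without CTRL replicate 1 (up to 0.118) and with the scaling without TMM. The Sdha call also ended in a fit of these 2 groups alone (edgeR adjusted p = 0.0567). Sdhb, the iron-sulfur subunit, was not called, at 0.10 ± 0.07.

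In complex III, 3 of the 8 subunits taken by the names were higher and 1 was lower at 1 DPA, beside 29.2% and 22.4% of all genes. Uqcrc2 (chr7:120635176-120659524, plus strand), a core protein, had 139.5, 136 and 153 CPM at 1 DPA, against 96.5, 96.96 and 91.3 CPM in CTRL, with a gap between the groups (log2 fold change 0.59 ± 0.06, edgeR adjusted p = 1.42e-05). Uqcrfs1, the Rieske iron-sulfur protein, had 85.5, 81.8 and 85.02 CPM at 1 DPA, against 60.5, 64.96 and 69.2 CPM in CTRL (log2 fold change 0.37 ± 0.06, edgeR adjusted p = 0.000183). Uqcrc1, the other core protein, was higher, at 0.28 ± 0.06. The small subunit Uqcr11 was lower, with 23.4, 24.04 and 23.8 CPM at 1 DPA, against 34.3, 37.4 and 31.03 CPM in CTRL (log2 fold change -0.53 ± 0.11, edgeR adjusted p = 0.00187). The remaining Uqcrb, Uqcrh, Uqcrq and Uqcr10 were between -0.13 and 0.19 and were not called.

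Complex IV, cytochrome c oxidase, had 6 of 15 subunits lower and 1 higher at 1 DPA, beside 22.4% and 29.2% of all genes. Its median log2 fold change was -0.18. Ndufa4 (chr6:11900292-11907497, minus strand), first assigned to complex I and now known as a complex IV subunit, showed the largest fall of all members, with 22.6, 24.6 and 22.4 CPM at 1 DPA, against 47.8, 43.2 and 39.9 CPM in CTRL. The groups did not overlap (log2 fold change -0.91 ± 0.08, edgeR adjusted p = 1.78e-06). Cox6c, Cox6a1 and Cox7c, small nuclear subunits, were lower, at -0.31 ± 0.07, -0.29 ± 0.07 and -0.27 ± 0.08. Cox6b1 and Cox7a2 were lower, at -0.18 ± 0.07 and -0.17 ± 0.06. The Cox6b1 call ended without CTRL replicate 1, any 1 DPA library or 5 DPA replicate 2 (edgeR adjusted p up to 0.0754). The Cox7a2 call ended without CTRL replicate 1, 1 DPA replicates 1 or 2, or any 5 DPA library (up to 0.0707). Both calls also ended with limma-voom, in a fit of these 2 groups alone and with the replicate block.

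Cox5a was the only complex IV subunit higher at 1 DPA, with 31.2, 30.9 and 29.9 CPM at 1 DPA, against 25.97, 26.9 and 22.4 CPM in CTRL (log2 fold change 0.29 ± 0.08, edgeR adjusted p = 0.00999), and it lost the call with the scaling without TMM. Its partner Cox5b was at -0.01 ± 0.11. Among paralogs, Cox4i1, the common form of subunit 4, was at -0.11 ± 0.06 and Cox4i2, a form known for hypoxia and lung, at -0.50 ± 0.22, neither called. The rarer isoforms had low counts and wide errors: Cox6a2 was at -0.75 ± 0.36, Cox6b2 at -0.56 ± 0.37 and Cox7a1 at 0.36 ± 0.68, none called. Cox8a and Cox7b were not called either, at 0.05 ± 0.08 and -0.09 ± 0.08.

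Complex V, the ATP synthase, had 3 of 15 subunits higher and 5 lower at 1 DPA, beside 29.2% and 22.4% of all genes. Of the 5 subunits of the F1 head, 3 were higher and 0 lower; of the 10 in the membrane Fo part and the stalk, 0 were higher and 5 lower. At an unadjusted p under 0.05 the counts were 3 higher and 1 lower in the head (edgeR) and 0 higher and 5 lower in the rest. The difference between these sets was not tested. Atp5b, the catalytic beta subunit, had 569.8, 527 and 579 CPM at 1 DPA, against 453, 484 and 423 CPM in CTRL (log2 fold change 0.30 ± 0.07, edgeR adjusted p = 0.00472). Atp5a1, its alpha partner, was higher, at 0.22 ± 0.06 (edgeR adjusted p = 0.00857). This call ended without CTRL replicate 1 or 1 DPA replicate 3 (up to 0.0922) and with the scaling without TMM. It also ended in a fit of these 2 groups alone (edgeR adjusted p = 0.0543). Atp5d, the delta subunit, had 152, 148 and 146 CPM at 1 DPA, against 104, 101 and 98.1 CPM in CTRL (log2 fold change 0.55 ± 0.05, edgeR adjusted p = 4.04e-06). Its exons overlap those of Cbarp on the other strand, which was higher by 1.66 on the log2 scale (edgeR adjusted p = 3.88e-08), and the part of Cbarp reads in the Atp5d counts was not tested.

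The c ring of Fo is made from 3 genes that encode the same mature protein. Atp5g1 (chr11:96068852-96075670, minus strand) had 39.3, 35.9 and 34.98 CPM at 1 DPA, against 54.8, 52.1 and 45.8 CPM in CTRL, with no overlap (log2 fold change -0.47 ± 0.07, edgeR adjusted p = 0.000242). Atp5g2 and Atp5g3 were lower, at -0.13 ± 0.05 and -0.12 ± 0.05 (edgeR adjusted p = 0.0487 and 0.0483). In the authors' mean TPM, from CTRL to 1 DPA, Atp5g2 rose from 137 to 147 and Atp5g3 from 85.5 to 91.8. Atp5g1 fell there too, from 22.4 to 18.9 TPM. The Atp5g2 call ended without CTRL replicate 3, 1 DPA replicates 1 or 2, 3 DPA replicates 2 or 3, or any 5 DPA library (up to 0.139), and the Atp5g3 call without 1 DPA replicate 2, 3 DPA replicates 2 or 3, or any 5 DPA library (up to 0.106). Both also ended with limma-voom, without the filter, in a fit of these 2 groups alone and with the replicate block (edgeR adjusted p = 0.0681 and 0.0652). In the stalk, Atp5j (coupling factor 6) was lower, at -0.38 ± 0.05 and Atp5h (subunit d) at -0.24 ± 0.06. The other 7 complex V subunits were not called, from -0.19 for Atp5e to 0.07 for Atp5f1.

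**Figure D3:**
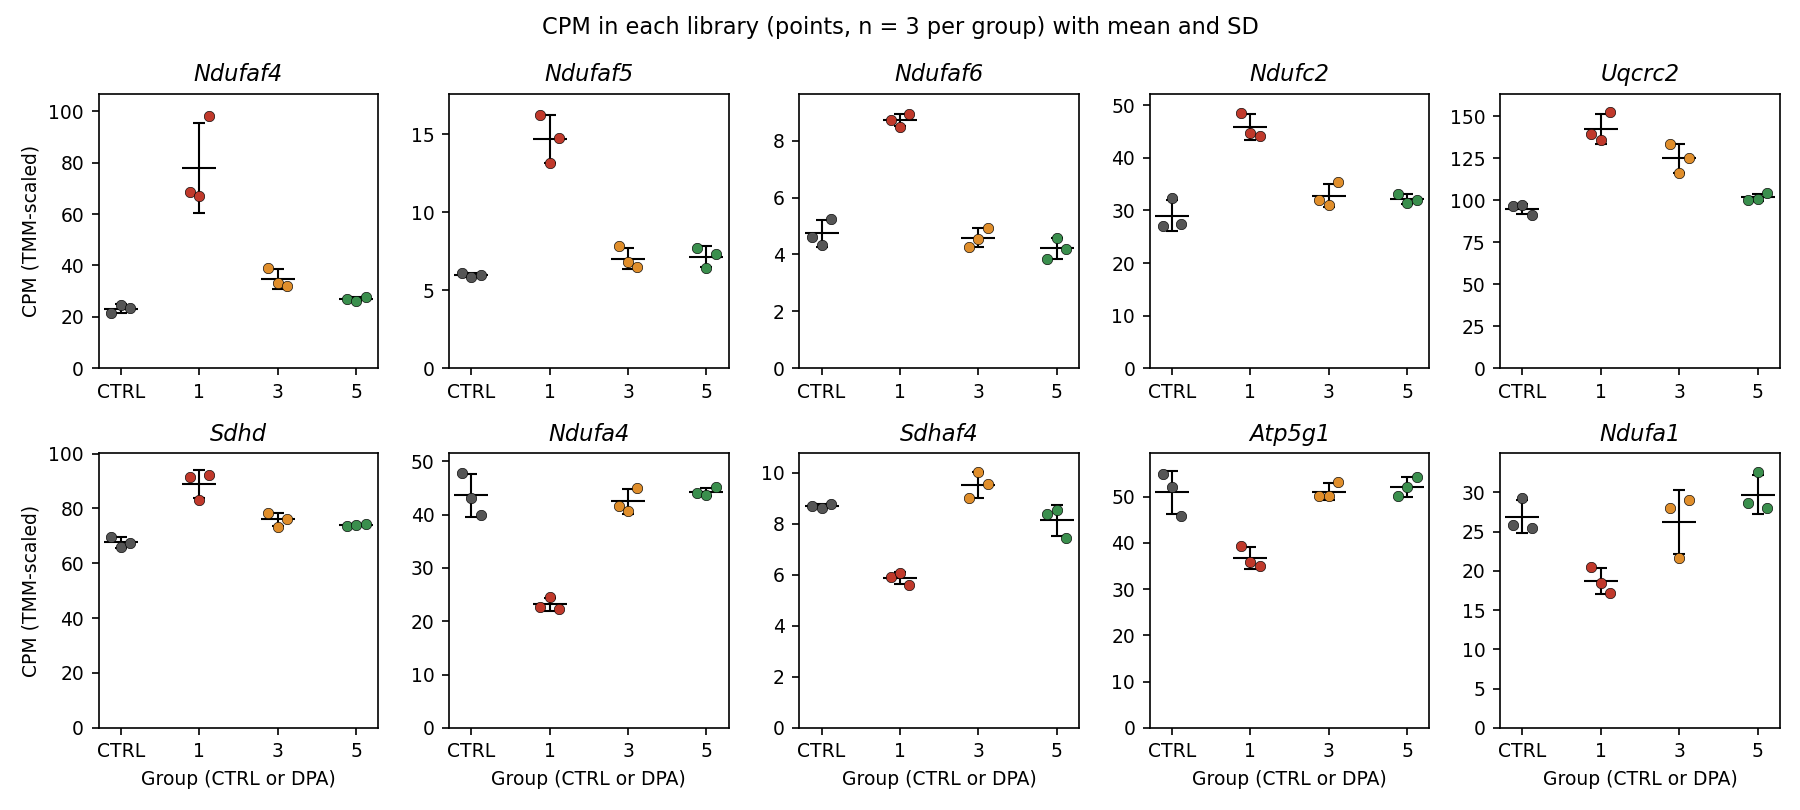
CPM (TMM-scaled) of 10 members in each library, with the mean and SD (n = 3 per group), in CTRL and at 1, 3 and 5 DPA. The upper row and Sdhd lie higher at 1 DPA than in CTRL, and Ndufa4, Sdhaf4, Atp5g1 and Ndufa1 lie lower. At 5 DPA the points are nearer those of CTRL, and none of these members is called. All 5 DPA points of Ndufaf4, Ndufaf5, Uqcrc2 and Sdhd still lie above those of CTRL, and all those of Sdhaf4 below.

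Summed over genes, complex IV was lower at 1 DPA, at 608.3, 595.5 and 594.9 CPM, against 689.9, 683.5 and 635.2 CPM in CTRL. The groups did not overlap, and the ratio of means was 0.8955, or 0.8201 with library sizes without the 50 most abundant genes. This fall of the sum is one of CPM and was not seen over the complex IV subunits in the authors' mean TPM. Even among the 6 subunits called lower, TPM did not all fall. From CTRL to 1 DPA, mean TPM fell for Ndufa4 (68.4 to 42.5), Cox6a1 (357 to 342) and Cox6c (32.6 to 30.7). It fell for Cox7c (68.6 to 67.1) and rose for Cox6b1 (148 to 153) and Cox7a2 (122.5 to 127.4). Of those not called, Cox8a rose (489 to 592), as did Cox4i1 (153 to 166), and Cox4i2 fell (9.41 to 7.60). Why the scales differ was not tested. The sums of the other complexes were higher in ratio with TMM, at 1.11 for complex I, 1.10 for complex II, 1.17 for complex III and 1.10 for complex V, but with those other library sizes the ratios were 1.015, 1.005, 1.07 and 1.006. The 11 assembly factors summed to 1.46 times CTRL, or 1.335 times with those library sizes, with 182.5, 173.1 and 201.3 CPM at 1 DPA, against 120.9, 127.7 and 133.6 CPM in CTRL. Nearly all of that came from Ndufaf4: without it the other 10 summed to 113.8, 106.1 and 103.3 CPM at 1 DPA, against 99.43, 103.0 and 110.0 CPM in CTRL, a ratio of 1.034 with overlapping groups. The median log2 fold change of the 11 was -0.12, with 3 called higher, 2 lower and 6 not called.

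The subunits encoded by mitochondrial DNA, which pair with these nuclear subunits in complexes I, III, IV and V, were lower at 1 DPA. All 13 were called lower, beside 22.4% of all genes, with a median log2 fold change of -0.69. mt-Nd2, a complex I subunit, had 555.6, 577.4 and 498.8 CPM at 1 DPA, against 970.4, 960.8 and 963.5 CPM in CTRL, and mt-Co1, the catalytic subunit of complex IV, had 5461, 5639 and 4897 CPM at 1 DPA, against 7508, 7405 and 7853 CPM in CTRL. The ratio of summed mitochondrially encoded to summed nuclear-encoded subunit counts was 5.43 ± 0.42 in CTRL, 3.31 ± 0.30 at 1 DPA, 4.28 ± 0.62 at 3 DPA and 4.11 ± 0.21 at 5 DPA (SD, n = 3 each). It ranged from 3.02 to 3.61 at 1 DPA, against 5.12 to 5.91 in CTRL. Of the 13, 3 were called lower than in CTRL at 3 DPA and 10 at 5 DPA, beside 2.37% and 2.67% of all genes.

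**Figure D4:**
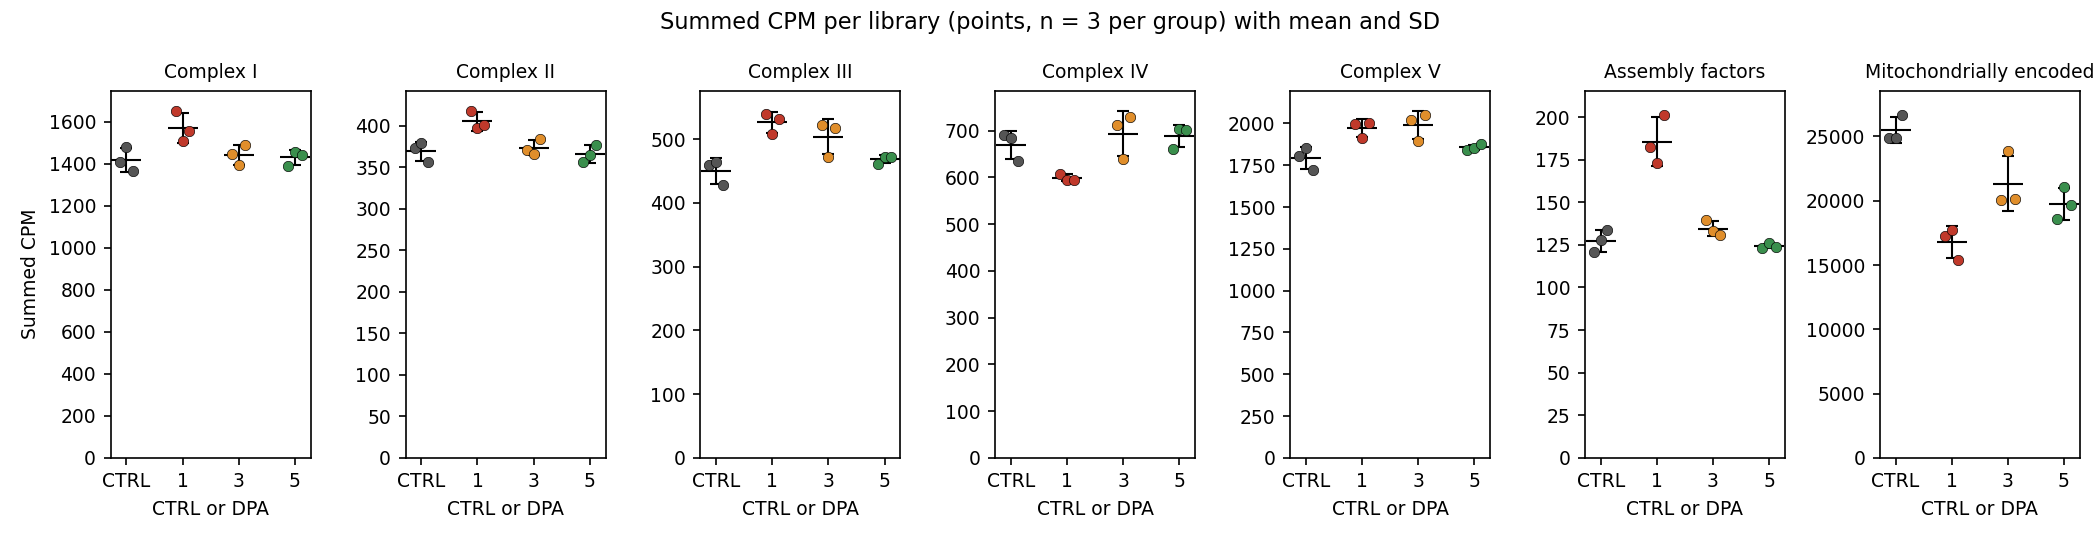
Summed CPM (TMM-scaled) of each complex, of the assembly factors and of the 13 mitochondrially encoded subunits, in each library, with the mean and SD (n = 3 per group), in CTRL and at 1, 3 and 5 DPA. On this scale the complex IV sum and the mitochondrially encoded sum are lower at 1 DPA than in CTRL. The complex IV fall was not seen in the authors' mean TPM. The assembly factor sum is higher, at 1.46 times CTRL, or 1.034 times without Ndufaf4.

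At 3 DPA fewer members were called. Against CTRL, 6 members were higher and 1 was lower, while 10.2% of all genes tested were called higher and 2.37% lower. Uqcrc2 had 134, 116 and 125 CPM at 3 DPA, against 96.5, 96.96 and 91.3 CPM in CTRL, with no overlap (log2 fold change 0.40 ± 0.06, edgeR adjusted p = 0.00125), and Ndufaf4 had 39.1, 32.99 and 31.9 CPM at 3 DPA, against 21.5, 24.7 and 23.6 CPM in CTRL (log2 fold change 0.58 ± 0.13, edgeR adjusted p = 0.0141). The other 4 higher members were Atp5f1, a stalk subunit whose exons overlap Wdr77 and Gm42890 on the other strand, at 0.27 ± 0.06, Uqcrfs1 at 0.27 ± 0.06, Atp5b at 0.25 ± 0.07 and Cox4i1 at 0.23 ± 0.06. Cox7a2l, which joins complexes III and IV in supercomplexes, was lower, with 93.3, 93.02 and 97 CPM at 3 DPA, against 112, 113 and 122 CPM in CTRL (log2 fold change -0.29 ± 0.06, edgeR adjusted p = 0.00551). The Ndufaf4 and Uqcrfs1 calls ended without CTRL replicate 1 or 3 DPA replicate 1 (edgeR adjusted p up to 0.101 and 0.0572), and the Atp5f1 call without 3 DPA replicate 1 (0.0704). The Cox4i1 call ended without any CTRL library, 1 DPA replicate 3, or 3 DPA replicates 1 or 3 (up to 0.307), and the Atp5b call without any 1 library other than 1 DPA replicate 2 or 3 DPA replicate 2 (up to 0.303). With the replicate block, the Cox4i1 and Atp5b calls ended too (edgeR adjusted p = 0.0554 and 0.0669), and in a fit of these 2 groups alone the Cox4i1, Atp5b, Atp5f1 and Uqcrfs1 calls ended.

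Set directly against 1 DPA, 23 members were higher at 3 DPA and 16 were lower, beside 20.4% and 24.7% of all genes. Without TMM and without the 50 most abundant genes the counts were 36 and 7, and the share of all called genes that were higher was 59.5%, beside 45.3%. This comparison shares its 1 DPA libraries with the one against CTRL above. Of the 39 calls, 12 ended when at least 1 library was left out and 23 held under every setting tried. Ndufa4 had 41.6, 40.8 and 45.1 CPM at 3 DPA, against 22.6, 24.6 and 22.4 CPM at 1 DPA (log2 fold change 0.87 ± 0.08, edgeR adjusted p = 6.45e-06). Ndufaf4 fell by 1.17 on the log2 scale and Ndufaf5 by 1.06, with edgeR adjusted p = 4.25e-05 and 3.84e-05. Complex IV had 8 of 15 subunits higher and 1 lower (Cox5a), and the Fo and stalk part of complex V had 7 of 10 higher and 0 lower.

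At 5 DPA, 0 of the 78 subunits were called against CTRL by edgeR in either direction (4 higher and 2 lower at an unadjusted p under 0.05), and 0 by DESeq2 and by limma-voom, while 5.87% of all genes were called higher and 2.67% lower. Over the 78, log2 fold changes ran from -0.21 to 0.60, from Uqcr11 to the low-count Cox6b2, and the median was 0.04. Among the other members, Ndufa4l2, a paralog of Ndufa4 known as a hypoxia-inducible gene, was higher, with 15.4, 12.5 and 11.2 CPM at 5 DPA, against 10.03, 8.81 and 7.96 CPM in CTRL (log2 fold change 0.54 ± 0.14, edgeR adjusted p = 0.0327). Cox7a2l was lower, with 92.97, 105 and 98.6 CPM at 5 DPA, against 112, 113 and 122 CPM in CTRL (log2 fold change -0.23 ± 0.06, edgeR adjusted p = 0.0348). Both calls ended when single libraries were left out: CTRL replicates 2 or 3, 3 DPA replicate 1, or 5 DPA replicates 1 or 2 for Ndufa4l2 (up to 0.15), and CTRL replicates 2 or 3, 3 DPA replicate 3, or 5 DPA replicates 1 or 3 for Cox7a2l (up to 0.158). At 5 DPA the summed macrophage markers were 668.2 to 930.8 CPM, against 146.5 to 610.2 CPM in CTRL, and the 12 stromal markers summed to 3432 to 5575 CPM, against 823.4 to 2525 CPM in CTRL, with 2 of them called higher. The stromal sum, like Ndufa4l2, was highest in 5 DPA replicate 1, and the macrophage sum in 5 DPA replicate 3. The part of these markers in both values was not tested.

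Between 5 DPA and 3 DPA, 0.705% of all genes were called higher at 5 DPA and 2.46% lower. Of the members, 0 were higher by edgeR (2 at an unadjusted p under 0.05) and 0 by DESeq2 or limma-voom, and 1 was lower: Uqcrc2, with 101, 101 and 104 CPM at 5 DPA, against 134, 116 and 125 CPM at 3 DPA (log2 fold change -0.30 ± 0.06, edgeR adjusted p = 0.0326). With the replicate number as a block (paired) the count of members lower was 0. The call also ended without CTRL replicates 1 or 2, 3 DPA replicates 1 or 3, or any 5 DPA library (edgeR adjusted p up to 0.227).

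Genes outside the names that work with these subunits or encode further ones were called as follows at 1 DPA. Among all genes tested, 29.2% were higher and 22.4% lower. Of 8 tested complex I assembly factors, 5 were higher and 2 lower; Ecsit was at 0.53 and Foxred1 at 0.47 on the log2 scale. Of 7 complex III genes outside the names, 4 were higher and 1 lower, with Uqcc1 (an assembly factor) at 0.76 and Ttc19 at 0.61. Cyc1 (cytochrome c1), itself a complex III subunit, was at 0.32. Of 19 complex IV assembly factors, 6 were higher and 4 lower; Cox10, which makes heme for complex IV, had 31.0, 27.9 and 36.9 CPM at 1 DPA, against 10.2, 11.5 and 9.45 CPM in CTRL (log2 fold change 1.62 ± 0.11, edgeR adjusted p = 4.97e-07). Of 5 complex V partners, 2 were higher, including the F1 assembly factor Atpaf2 at 0.75, and 2 lower, including Atpaf1 at -0.27. Of 11 genes for coenzyme Q synthesis and cytochrome c, 6 were higher and 2 lower, with Coq6 at 1.46. Of 13 citrate cycle genes, 5 were higher and 4 lower; Fh1, fumarate hydratase, had 223.1, 215.6 and 185.5 CPM at 1 DPA, against 65.3, 64.1 and 74.2 CPM in CTRL (log2 fold change 1.62 ± 0.08, edgeR adjusted p = 7.93e-08).

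Of 12 regulators of mitochondrial gene expression, 8 were called higher and 1 lower at 1 DPA, again beside 29.2% and 22.4% of all genes. Ppargc1a, the coactivator PGC-1alpha, had 16.9, 19.0 and 9.07 CPM at 1 DPA, against 1.12, 1.34 and 1.44 CPM in CTRL, all 1 DPA libraries being above (log2 fold change 3.52 ± 0.28, edgeR adjusted p = 1.39e-06). Pprc1, a related coactivator, was at 1.32, and Polrmt, the mitochondrial RNA polymerase, at 0.96. Named after their values were seen, because their motifs were searched above, Nrf1 was at 0.56, Yy1 at 0.56, Gabpa, which binds ETS letters, at 0.24 and Esrra, the factor ERRalpha, at -0.07, the last not called. The genes of each list varied in direction, and no list was tested as a set.

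Markers of other cell types moved at 1 DPA beside these values. Of the 12 macrophage markers 10 were lower, with sums of 107.9 to 132.5 CPM at 1 DPA, against 146.5 to 610.2 CPM in CTRL. Lower too were 8 of the 10 beta cell markers, 4 of 8 endothelial, 3 of 12 stromal and 2 of 6 duct markers, and no marker on these lists was called higher. Of all genes tested, 22.4% were called lower and 29.2% higher. The stromal count lay near that lower share, and the duct list is too short to set apart from it. The 12 acinar markers were not called, with a median log2 fold change of -0.48. Their part in the member values was not tested.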

How the data were processed

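RNA from islets was extracted with RNeasy Mini columns and made into libraries with a QIAseq stranded mRNA kit, per the labels' protocols. The authors deposited 1 table with raw read counts and TPM per library, per the file headers. The submitters' processing notes name mm10 as the build. Which aligner and counter were used, with what annotation and strand setting, is not given in the sources used here. Its 12 count and 12 TPM columns were used, leaving 24 other per-sample columns unused.

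Groups came from the labels. Genes passing edgeR's filterByExpr (minimum count 10; 17294 of 48709) were scaled by TMM. A robust quasi-likelihood model in edgeR took the 12 libraries together with 4 group means, and calls were made at a Benjamini-Hochberg adjusted p under 0.05 over all genes tested. SE was taken from the F statistic. TPM was used for levels per length, and was set beside CPM without a test for complex IV subunits, the c ring genes and Ndufb10. Replicates of a group all differed beyond sampling noise in their counts (chi-square over degrees of freedom 47.2 to 229.2). Precision is limited by 3 libraries per group and 29867083 to 50012558 counts per library. Simulated counts with known changes were used to test the fit. Gene positions came from the GENCODE annotation of mm10 and promoters from RefSeq, build GRCm38.p6.

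The members, the gene lists and the tests were chosen with earlier results of these data known. Members named with full values were the 6 largest rises and falls called against CTRL, the smallest p per complex, fixed paralog sets and the largest changes between times; other called members are given as well, except that 1 is not reported here. Up to 3 called genes of smallest p were named per other list. Of the pathway lists, Dmac1 had no row and Pet117 was not tested. Only 2 of the 10 muscle markers were tested.

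Results were recomputed with DESeq2, limma-voom and RLE scaling, without the filter, with a fit of the compared groups alone, with a replicate block, and without each library in turn. TMM was also run on library sizes that leave out the 50 most abundant genes. Those library sizes with no TMM were added after seeing the data. Nothing in the labels says that a replicate number marks a shared animal or day. Between 3 and 5 DPA libraries of the same number, deviations from the group means correlated weakly, at 0.156, 0.187 and 0.326. All 3 pairs were above 0.1 for no other groups, but replicate 3 of CTRL and 5 DPA correlated at -0.465. Pairs of unlike number were not compared, so these values do not settle whether replicate numbers pair libraries. Software was DESeq2 1.42.0, edgeR 4.0.16 and limma 3.58.1 in R 4.3.3.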

Additional observations from a re-analysis of the deposited data

Results flagged for a closer look

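The effect against CTRL differed between 1 and 3 DPA for 23 of the members named by the rule (edgeR's test of 3 DPA against 1 DPA, which is the difference of both effects, adjusted over all genes). The values below are the log2 fold change of 3 DPA against 1 DPA, so their sign gives a direction and not the size of the effect against CTRL. Higher at 3 DPA than at 1 DPA were Ndufa4 (0.87), Sdhaf4 (0.70), Ndufa1 (0.49), Atp5g1 (0.48), Sdhc (0.35), Cox4i1 (0.33), Uqcr11 (0.31), Cox6a1 (0.28), Cox7a2 (0.27), Uqcrh (0.25), Atp5g3 (0.22), Cox6b1 (0.21), Atp5f1 (0.20) and Atp5g2 (0.18). Lower at 3 DPA than at 1 DPA were Ndufaf4 (-1.17), Ndufaf5 (-1.06), Ndufaf6 (-0.93), Ndufc2 (-0.48), Atp5d (-0.47), Sdha (-0.25), Cox5a (-0.24), Sdhd (-0.23) and Uqcrc2 (-0.19). Without single libraries 6 of these calls ended: those of Uqcr11, Cox5a and Uqcrh each without any of 6 libraries, that of Uqcrc2 without any of 5, that of Cox6b1 without any of 3 and that of Atp5g2 without either of 2. The Uqcr11 and Cox5a calls also ended with the replicate block.

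Between 3 and 5 DPA the effect differed for Uqcrc2 alone among the named members (-0.30), a call that also ended with the replicate block and without any of 7 single libraries. Groups of 3 libraries are too small for the search for single outlying samples.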

How the results depend on the processing

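Of 89 calls of members over the 5 comparisons, 55 held under every setting, 29 ended without at least 1 library, 28 ended under at least 1 other setting, and 0 turned round. At 1 DPA against CTRL the counts of members stayed at 16 to 21 higher and 16 to 22 lower without single libraries, and at 3 DPA against 1 DPA at 16 to 24 higher and 12 to 16 lower. At 3 DPA against CTRL they were 1 to 7 higher and 1 to 2 lower, at 5 DPA against CTRL 0 to 2 higher and 0 to 1 lower, and at 5 DPA against 3 DPA 0 higher and 0 to 2 lower.

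With library sizes without the 50 most abundant genes and no TMM, 36 members were lower at 1 DPA, 0 lower at 5 DPA, 36 higher and 7 lower at 3 DPA against 1 DPA, and 0 lower at 5 DPA against 3 DPA. DESeq2 gave 2 lower at 3 DPA and 2 lower at 5 DPA against 3 DPA; RLE scaling gave 0 lower in the last. Without the filter, 0 were lower at 5 DPA against CTRL and against 3 DPA. With only the compared groups, 2 were higher at 3 DPA, 0 higher and 0 lower at 5 DPA, and 2 lower at 5 DPA against 3 DPA. With the replicate block, 20 were higher and 15 lower at 1 DPA, and 0 were lower at 5 DPA against 3 DPA; it ended the calls of Atp5g2, Atp5g3, Cox6b1, Cox7a2 and Sdhaf1 at 1 DPA, of Cox4i1 and Atp5b at 3 DPA, of Uqcr11, Cox5a, Ndufv2 and Atp5j2 at 3 DPA against 1 DPA, and of Uqcrc2 at 5 DPA against 3 DPA. The causes were not tested. Low counts limit Cox7a1 (97 in all), Cox6b2 (321) and Cox6a2 (369).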

Other observations

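Exon length differed between members that moved each way at 1 DPA: the median merged exon length was 2230 bases for the 20 higher members and 1423 bases for the 20 lower ones. Over the 93 members, Pearson's r between log2 fold change and the log of length was 0.218, and it was -0.0629 over 17257 genes tested. Genes are not independent replicates, and the relation is weak.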
